A study of Mus musculus with 16 samples.

Results

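The genes of G2, mitosis and cytokinesis were followed in plated fibro/adipogenic progenitors (FAPs), which are mesenchymal cells of skeletal muscle and give rise to fibroblasts and adipocytes. The list held 50 genes, chosen by name for their roles in mitotic entry, the kinetochore, the spindle, anaphase and cell separation. Earlier results of these data were known when it was chosen, so its counts beside all probes are descriptive only. A probe named 44 of them, out of 16593 named genes on the array. The 44 genes had 67 probes, and the brightest probe by its mean over all arrays stood for a gene. Cenpf, Aurkb, Kif20b, Racgap1, Ncapg and Smc4 had no probe and are not analysed here.

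The cells came from Balb/cJ mice that lacked the interleukin-4 receptor alpha chain (IL4RA -/-, called knockout below) or were wild type. They were given recombinant IL-4, a type 2 cytokine that acts through this receptor, or vehicle. The 4 groups were knockout with IL-4, knockout with vehicle, wild type with IL-4 and wild type with vehicle, with 4 Illumina MouseRef-8 v2.0 arrays each. The series calls these biological replicates, and which mouse or culture each came from is not given in the sources used here, so p-values measure only the spread between these samples. Dose, time in culture with IL-4, sex and age are not given there either. The labels number wild-type IL-4 samples 5 to 8 and wild-type vehicle samples 1 to 4, while both knockout groups carry 1 to 4. A difference between these 2 sets of wild-type samples cannot be told apart from the IL-4 change in wild type. The same holds for the difference of response between genotypes. No probe was named for the receptor gene itself, and its level could not be set against the genotype labels.

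Before a cell divides, cyclin-dependent kinase and polo and aurora kinases start mitosis, condensin and topoisomerase compact the chromosomes, and kinetochores tie them to spindle microtubules. The spindle checkpoint holds back the anaphase-promoting complex until all chromosomes are attached, and afterwards the central spindle and a contractile ring split the cell. Transcripts of most of these genes rise together late in the cell cycle, under FOXM1 and the MYB-MuvB complex, and are held down in resting cells by the DREAM complex.

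Values are the authors' normalized log2 intensities, whose median over probes was 7.85. The lowest value on an array averaged 7.72, and 57% of the probes lay within 0.15 of it on the mean over all arrays, where differences are compressed. A difference of 1 on this scale is a doubling of signal, as far as the scale is log2. All 9 measured FAP and mesenchymal markers lay over that margin on the mean of all arrays, and their summed level above the array minimum was 22.34 to 22.65 in knockout IL-4 arrays, 21.94 to 22.31 in knockout vehicle arrays, 20.93 to 22.41 in wild-type IL-4 arrays and 20.25 to 20.97 in wild-type vehicle arrays. Single FAP markers moved both ways: with IL-4 in wild type Vim (0.84), Thy1 (0.57) and Cd34 (0.14) were higher and Lum (-0.42) and Dcn (-0.34) lower. In knockout against wild-type FAPs, 4 were higher and 3 lower with IL-4, and Dcn alone was higher under vehicle (0.52). The part of these shifts in the results below was not tested. Of 7 measured macrophage and leukocyte markers, Ptprc, Adgre1, Itgam and Cd3e lay within it. The summed level of those 7 above the array minimum was 2.93 to 3.48 in knockout IL-4 arrays, 2.86 to 3.28 in knockout vehicle arrays, 1.48 to 1.69 in wild-type IL-4 arrays and 2.67 to 2.81 in wild-type vehicle arrays. The gap in wild-type IL-4 arrays came with 1 called marker, Lyz2, a lysozyme of myeloid cells, which was lower by a log2 change of -1.07, and its part in the results below was not tested. Of 7 endothelial and 6 myogenic markers, 4 and 3 lay within the margin, Pecam1, Pax7 and Myod1 among them. In wild type 1 endothelial marker was lower with IL-4 (limma adjusted p = 0.0442), and 0 myogenic markers passed. Under vehicle 1 myogenic marker was lower in knockout FAPs (limma adjusted p = 0.011), and 0 endothelial markers passed. With IL-4, 3 of the 7 macrophage and leukocyte markers were higher in knockout than in wild-type FAPs, by up to 1.29, and 0 lower. In the same comparison 1 endothelial marker was higher and 1 myogenic marker lower. Their part in the results below was not tested. Knockout vehicle arrays 2 and 3 stood apart from the other knockout arrays on the third principal component, at -6.95 and -7.52 against -2.16 to 4.77.

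Most of the measured mitotic genes rose with IL-4 in wild-type FAPs. Against vehicle, 29 of the 44 measured genes were higher with IL-4 and 0 were lower (limma adjusted p under 0.05), while 6.34% of all 25697 probes were higher and 7.32% were lower. The median change of the 44 genes was 0.22 on the log2 scale, against -0.001 over all probes. The largest changes were those of Prc1, the microtubule bundler of the central spindle, at 2.96-fold, Cenpa, the histone of centromeres, at 2.68-fold, and Anln, the anillin of the contractile ring, at 2.54-fold. These ranked 18, 21 and 24 among all 25697 probes by their rise. In 30 of the 44 genes every wild-type IL-4 array lay above every wild-type vehicle array, which held for 7.41% of all probes. In 0 genes every one lay below, which held for 8.92% of all probes. In these bulk cultures a larger share of dividing cells and more RNA per dividing cell cannot be told apart.

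**Figure D1:**
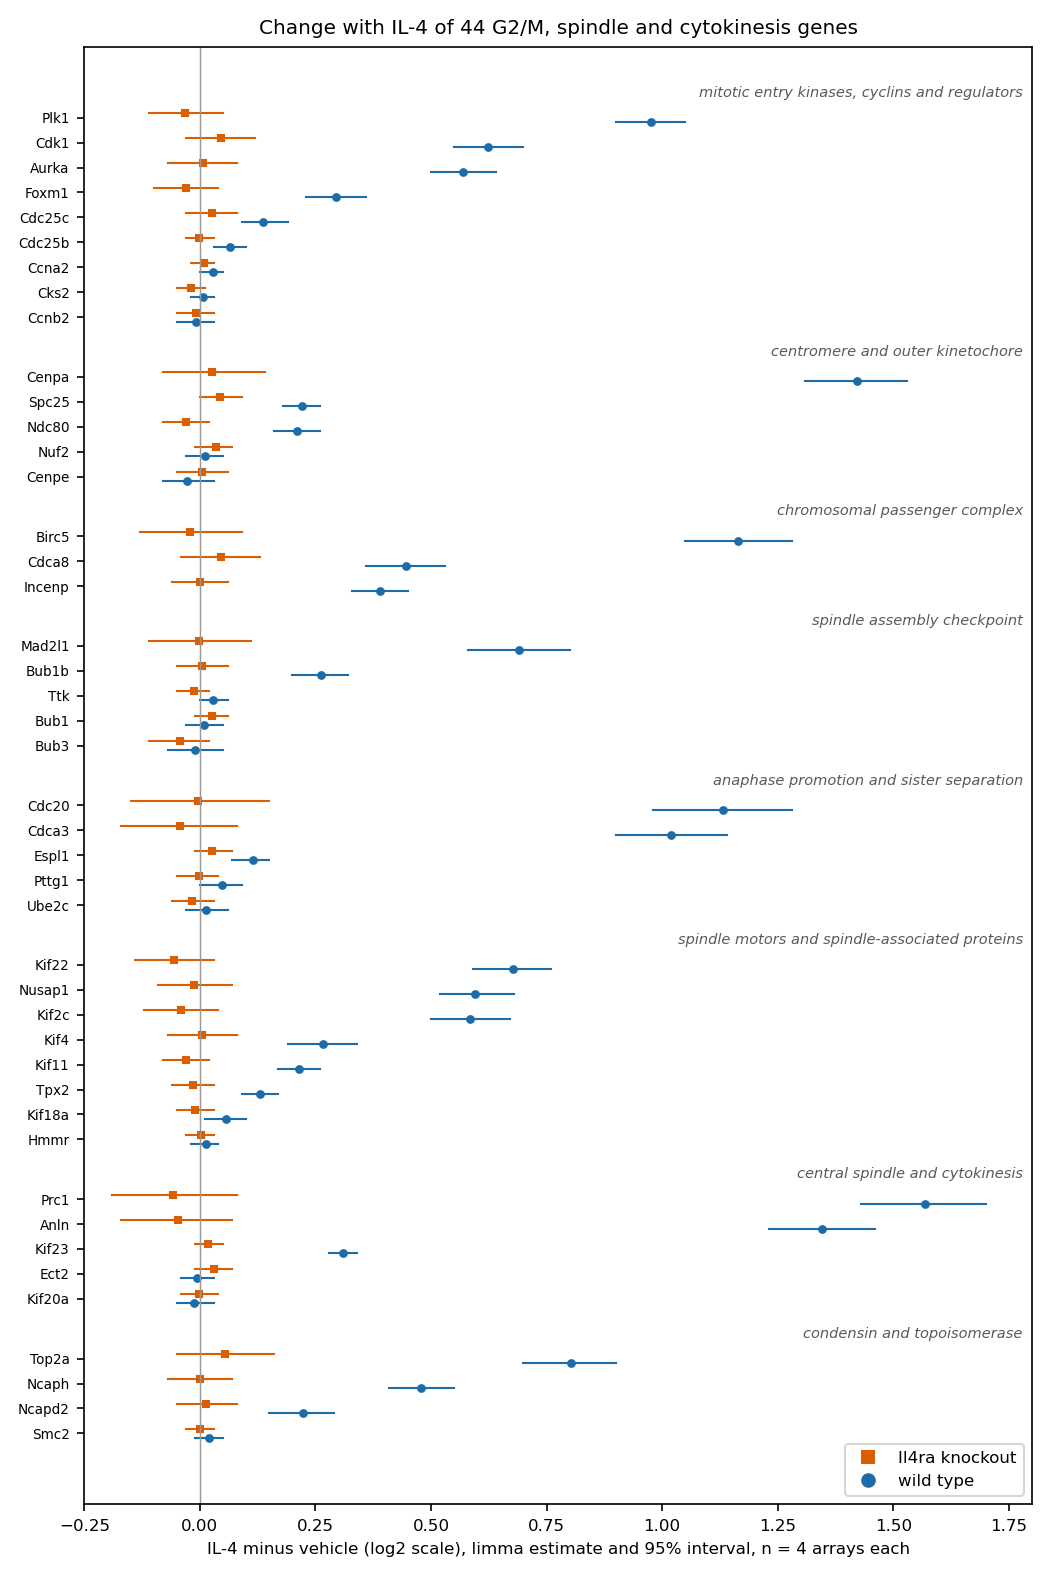
Change with IL-4 of each of the 44 measured genes, by role, as the limma estimate with its 95% interval on the log2 scale (IL-4 minus vehicle, 4 arrays in each group). Squares are knockout cells and circles are wild-type cells; the squares lie between -0.06 and 0.05, while the circles reach 1.57 for Prc1.

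The promoters of these genes are known for a CCAAT box, bound by NF-Y, and for the cell cycle genes homology region, a TTTGAA-like element near the start that MuvB complexes bind. Windows of 300 bases, from 250 before to 50 after the start, were taken from RefSeq (GRCm38.p6), and 42 of the 50 listed genes had 45 such windows. Searched on both strands, TTTGAA was found in 75.6% of the 45 windows, against 17.9% of all 32851 windows of this length. Within 50 bases of the start it was found in 68.9% of the windows of listed genes, against 4.94% of all windows. CCAAT was found in 75.6% of the windows of listed genes and 37.4% of all windows. TTTAAA occurred in 17.8% against 13.2%, and TTCGAA in 8.89% against 1.56%. Matches of different motifs overlapped each other in 1 of the 45 windows. Both motifs also stood in windows of genes that did not pass. TTTGAA was found in 80.8% of the 26 windows of genes higher with IL-4 and in 60.0% of the 15 windows of measured genes that did not pass, and CCAAT in 73.1% and 80.0%, with no test. Such matches describe the letters only. All measured genes that did not pass, except Bub3, lay near the array minimum, where differences are compressed. This split therefore cannot tell genes without a response from genes too dim to show one.

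The windows of the 3 genes with the largest rise and of the 2 genes with the smallest change are shown for what the groups share, each 5′ to 3′ on the strand of its gene. Capitals mark these 4 motifs on either strand, so that ATTGG is CCAAT read on the other strand and TTCAAA is likewise TTTGAA. Prc1 lies on the plus strand at chr7:80294201-80294500, Cenpa on the plus strand at chr5:30666636-30666935 and Anln on the minus strand at chr9:22389157-22389456. Cks2 lies on the plus strand at chr13:51644982-51645281 and Ect2 on the minus strand at chr3:27153805-27154104.
Prc1: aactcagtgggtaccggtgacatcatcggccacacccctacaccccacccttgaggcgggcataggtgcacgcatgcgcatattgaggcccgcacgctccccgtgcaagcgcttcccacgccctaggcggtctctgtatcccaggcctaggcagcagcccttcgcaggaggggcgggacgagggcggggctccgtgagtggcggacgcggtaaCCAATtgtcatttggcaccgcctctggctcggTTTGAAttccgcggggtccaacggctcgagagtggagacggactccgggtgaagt
Cenpa: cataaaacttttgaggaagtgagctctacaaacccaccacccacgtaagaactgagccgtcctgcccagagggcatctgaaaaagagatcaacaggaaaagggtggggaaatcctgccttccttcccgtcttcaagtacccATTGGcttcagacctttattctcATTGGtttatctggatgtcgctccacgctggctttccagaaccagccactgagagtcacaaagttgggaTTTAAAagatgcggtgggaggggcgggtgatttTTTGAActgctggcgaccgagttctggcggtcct
Anln: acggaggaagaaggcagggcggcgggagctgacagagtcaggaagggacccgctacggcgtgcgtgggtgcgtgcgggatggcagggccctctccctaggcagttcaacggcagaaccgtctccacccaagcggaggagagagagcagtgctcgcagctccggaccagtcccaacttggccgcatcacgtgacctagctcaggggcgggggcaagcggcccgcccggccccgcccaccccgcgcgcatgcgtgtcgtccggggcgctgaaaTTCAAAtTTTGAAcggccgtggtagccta
Cks2: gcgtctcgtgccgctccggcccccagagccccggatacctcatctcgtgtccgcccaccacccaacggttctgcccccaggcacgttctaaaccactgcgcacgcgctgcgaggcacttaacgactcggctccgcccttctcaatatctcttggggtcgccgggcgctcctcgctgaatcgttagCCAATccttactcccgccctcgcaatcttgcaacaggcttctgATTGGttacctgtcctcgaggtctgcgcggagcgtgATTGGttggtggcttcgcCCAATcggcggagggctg
Ect2: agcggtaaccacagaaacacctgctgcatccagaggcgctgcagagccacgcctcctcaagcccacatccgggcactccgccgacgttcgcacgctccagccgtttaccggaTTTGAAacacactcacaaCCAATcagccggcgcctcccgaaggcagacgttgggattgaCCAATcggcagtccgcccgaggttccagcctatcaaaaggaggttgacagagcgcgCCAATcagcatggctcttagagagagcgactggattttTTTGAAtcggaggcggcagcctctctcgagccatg
Prc1 and Ect2 each had 2 overlapping windows, and 1 of each is shown. The Prc1 window held CCAAT and then TTTGAA, first bases at -37 and -5 from the start. In its other window they stood at -62 and -30. The Cenpa window had a pair of CCAAT boxes on the other strand, a TTTAAA before the start and a TTTGAA after it. In the Anln window TTTGAA occurred on both strands just after the start, with no CCAAT. Ect2 carried 3 CCAAT matches and 2 TTTGAA matches, and Cks2 carried 4 CCAAT matches and no TTTGAA. Ect2 and Cks2 both lay near the array minimum, so their small changes do not show that they lacked a response.

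Among the kinases, cyclins and regulators of mitotic entry, 6 of 9 measured genes were higher in wild-type FAPs with IL-4, with a median change of 0.14. Plk1, the polo kinase of centrosomes, chromosomes and cytokinesis, read 9.65, 9.68, 9.55 and 9.62 in wild-type IL-4 arrays, against 8.65, 8.69, 8.56 and 8.70 in wild-type vehicle arrays. The groups lay far apart, and the change was 0.97 (SE 0.04, limma adjusted p = 1.2e-10). Cdk1, the kinase that starts mitosis with its cyclins, read 9.26, 9.28, 9.32 and 9.31 in wild-type IL-4 arrays, against 8.64, 8.68, 8.65 and 8.71 in wild-type vehicle arrays, a change of 0.62 (SE 0.03, limma adjusted p = 5.9e-09). Of its 3 probes this was the only one to pass; the others lay within the margin of the array minimum, and the mean of all 3 changed by 0.23. Aurka, the aurora kinase of spindle poles, read 8.97, 8.83, 8.80 and 8.75 in wild-type IL-4 arrays and 8.28, 8.25, 8.26 and 8.27 in wild-type vehicle arrays. Again no array overlapped, and the change was 0.57 (SE 0.03, limma adjusted p = 2.04e-08). Foxm1, the transcription factor of this gene group, rose by 0.29, and its second probe passed as well (0.24). Smaller changes passed for the phosphatases that activate Cdk1, Cdc25c at 0.14 (0.08 as the mean of its probes) and Cdc25b at 0.07. Ccna2 (0.03) and Ccnb2 (-0.01), both cyclins, and Cks2 (0.01), a small subunit of cyclin-dependent kinases, did not pass, and all 3 lay within 0.15 of the array minimum.

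At the centromere and outer kinetochore, 3 of 5 measured genes were higher in wild-type FAPs with IL-4. Cenpa read 11.17, 11.29, 11.38 and 11.26 in wild-type IL-4 arrays, against 9.76, 9.93, 9.87 and 9.86 in wild-type vehicle arrays. The gap was many times the spread, with a change of 1.42 (SE 0.05, limma adjusted p = 7.92e-11). Spc25 and Ndc80 encode subunits of the NDC80 complex, which grips microtubules. Spc25 read 8.20, 8.21, 8.26 and 8.29 in wild-type IL-4 arrays, against 8.05, 8.02, 8.0 and 8.0 in wild-type vehicle arrays, a change of 0.22 (SE 0.02, limma adjusted p = 1.55e-06). Ndc80 read 8.09, 8.19, 8.16 and 8.19 in wild-type IL-4 arrays and 7.95, 7.90, 7.97 and 7.96 in wild-type vehicle arrays, a change of 0.21 (SE 0.02, limma adjusted p = 1.86e-05). Neither pair of groups overlapped, and a second, dimmer Ndc80 probe did not pass (-0.03), so that the mean of both changed by 0.09. The other NDC80 subunit Nuf2 (0.01) and the kinesin Cenpe (-0.03), which carries chromosomes to the spindle equator, did not pass and were dim.

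All 3 measured members of the chromosomal passenger complex, which corrects faulty attachments and then moves to the central spindle, were higher in wild-type FAPs with IL-4. Birc5 (survivin) read 10.14, 10.10, 10.0 and 9.92 in wild-type IL-4 arrays, against 8.84, 8.76, 8.99 and 8.91 in wild-type vehicle arrays. That was a change of 1.16 (SE 0.05, limma adjusted p = 8.87e-10), and all 3 of its probes passed. Cdca8 (borealin) read 8.64, 8.67, 8.44 and 8.53 in wild-type IL-4 arrays and 8.15, 8.07, 8.11 and 8.18 in wild-type vehicle arrays, a change of 0.44 (SE 0.04, limma adjusted p = 1.37e-06). Incenp, the scaffold of the complex, read 8.70, 8.65, 8.67 and 8.58 in wild-type IL-4 arrays and 8.25, 8.23, 8.32 and 8.23 in wild-type vehicle arrays, a change of 0.39 (SE 0.03, limma adjusted p = 2.98e-07). In each of the 3 genes the lowest IL-4 array lay above the highest vehicle array.

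Of the spindle assembly checkpoint, 2 of 5 measured genes were higher in wild-type FAPs with IL-4. Mad2l1, the Mad2 protein that binds and holds Cdc20, read 9.17, 9.27, 9.28 and 9.28 in wild-type IL-4 arrays, against 8.61, 8.57, 8.58 and 8.49 in wild-type vehicle arrays, a change of 0.69 (SE 0.05, limma adjusted p = 1.79e-07). Bub1b (BubR1), its partner in the checkpoint complex, read 8.27, 8.18, 8.11 and 8.13 in wild-type IL-4 arrays and 7.92, 7.93, 7.93 and 7.88 in wild-type vehicle arrays, a change of 0.26 (SE 0.03, limma adjusted p = 6.28e-06). The checkpoint kinases Ttk (0.03) and Bub1 (0.01) did not pass and lay near the array minimum. Ttk read 7.86, 7.84, 7.83 and 7.79 in wild-type IL-4 arrays, against 7.78, 7.83, 7.79 and 7.81 in wild-type vehicle arrays, so the groups overlapped. Bub3, which brings the Bub proteins to kinetochores, was the only gene over the margin that did not pass: it read 8.28, 8.37, 8.33 and 8.29 in wild-type IL-4 arrays, against 8.36, 8.30, 8.31 and 8.34 in wild-type vehicle arrays. Its change was -0.01, with a 95% interval of -0.07 to 0.05 (limma adjusted p = 0.914).

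For anaphase and the separation of sister chromatids, 3 of 5 measured genes were higher in wild-type FAPs with IL-4. Cdc20, which activates the anaphase-promoting complex, read 9.45, 9.84, 9.80 and 9.57 in wild-type IL-4 arrays, against 8.53, 8.57, 8.48 and 8.56 in wild-type vehicle arrays. The IL-4 arrays spread more than the vehicle arrays, and the change was 1.13 (SE 0.07, limma adjusted p = 2.8e-08); all 4 of its probes passed. Cdca3, linked to the breakdown of the mitotic inhibitor Wee1, read 9.24, 9.51, 9.55 and 9.51 in wild-type IL-4 arrays and 8.50, 8.39, 8.44 and 8.41 in wild-type vehicle arrays, a change of 1.02 (SE 0.06, limma adjusted p = 8.43e-09). Its second, dimmer probe changed by 0.33 and passed too, and the mean of both changed by 0.67. Espl1 (separase), the protease that cuts cohesin, read 7.98, 8.04, 7.98 and 7.95 in wild-type IL-4 arrays, against 7.91, 7.87, 7.85 and 7.87 in wild-type vehicle arrays. These groups came within 0.04 of each other, and the change was 0.11 (SE 0.02, limma adjusted p = 0.000531). Pttg1 (0.05), the securin that restrains separase, and Ube2c (0.01), a ubiquitin carrier of the anaphase-promoting complex, did not pass and were dim.

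Of the spindle motors and spindle-associated proteins, 6 of 8 measured genes were higher in wild-type FAPs with IL-4, with a median change of 0.24. Kif22, a kinesin on chromosome arms, read 9.27, 9.31, 9.33 and 9.30 in wild-type IL-4 arrays, against 8.65, 8.66, 8.54 and 8.66 in wild-type vehicle arrays, a change of 0.68 (SE 0.04, limma adjusted p = 1.49e-08). Nusap1, which binds spindle microtubules, read 8.58, 8.80, 8.78 and 8.65 in wild-type IL-4 arrays and 8.12, 8.10, 8.11 and 8.09 in wild-type vehicle arrays, a change of 0.60 (SE 0.04, limma adjusted p = 3.31e-08). Its other 2 probes lay near the array minimum and did not pass, and the mean of all 3 changed by 0.20. Kif2c, a kinesin that takes microtubule ends apart, read 8.81, 8.76, 8.56 and 8.70 in wild-type IL-4 arrays, against 8.17, 8.09, 8.13 and 8.10 in wild-type vehicle arrays, a change of 0.58 (SE 0.04, limma adjusted p = 5.52e-08). In all 3 genes the groups did not overlap. The chromosome kinesin Kif4 (0.27), the spindle-pole-separating kinesin Kif11 (0.21) and Tpx2 (0.13), an activator of Aurora A, rose less. Kif18a (0.06), a kinesin that limits microtubule length, missed the threshold (limma adjusted p = 0.0852), as did Hmmr (0.01), a spindle-pole protein; both were dim.

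At the central spindle and in cytokinesis, 3 of 5 measured genes were higher in wild-type FAPs with IL-4, 2 of them among the largest changes of all 44 genes. Prc1 read 10.99, 11.06, 11.12 and 10.90 in wild-type IL-4 arrays, against 9.48, 9.46, 9.44 and 9.42 in wild-type vehicle arrays, a change of 1.57 (SE 0.06, limma adjusted p = 2.38e-10). Anln read 10.68, 10.80, 10.51 and 10.51 in wild-type IL-4 arrays and 9.27, 9.28, 9.34 and 9.24 in wild-type vehicle arrays, a change of 1.35 (SE 0.05, limma adjusted p = 2.4e-10). For both genes the gap between the groups was over 1 on the log2 scale, wider than either group's spread. Of the other Anln probes, both dim, 1 passed with a change of 0.07, and the mean of all 3 changed by 0.47. Kif23, the motor of centralspindlin, read 8.33, 8.28, 8.28 and 8.25 in wild-type IL-4 arrays, against 7.98, 7.96, 7.98 and 7.98 in wild-type vehicle arrays, a change of 0.31 (SE 0.01, limma adjusted p = 5.78e-10). Ect2, which is needed for the cleavage furrow, read 7.81, 7.79, 7.79 and 7.83 in wild-type IL-4 arrays, against 7.79, 7.83, 7.81 and 7.82 in wild-type vehicle arrays. With Cks2 it had the smallest change of all, at -0.01 (95% interval -0.04 to 0.03), and Kif20a, a kinesin of the central spindle, also stood at -0.01; both genes were dim.

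**Figure D2:**
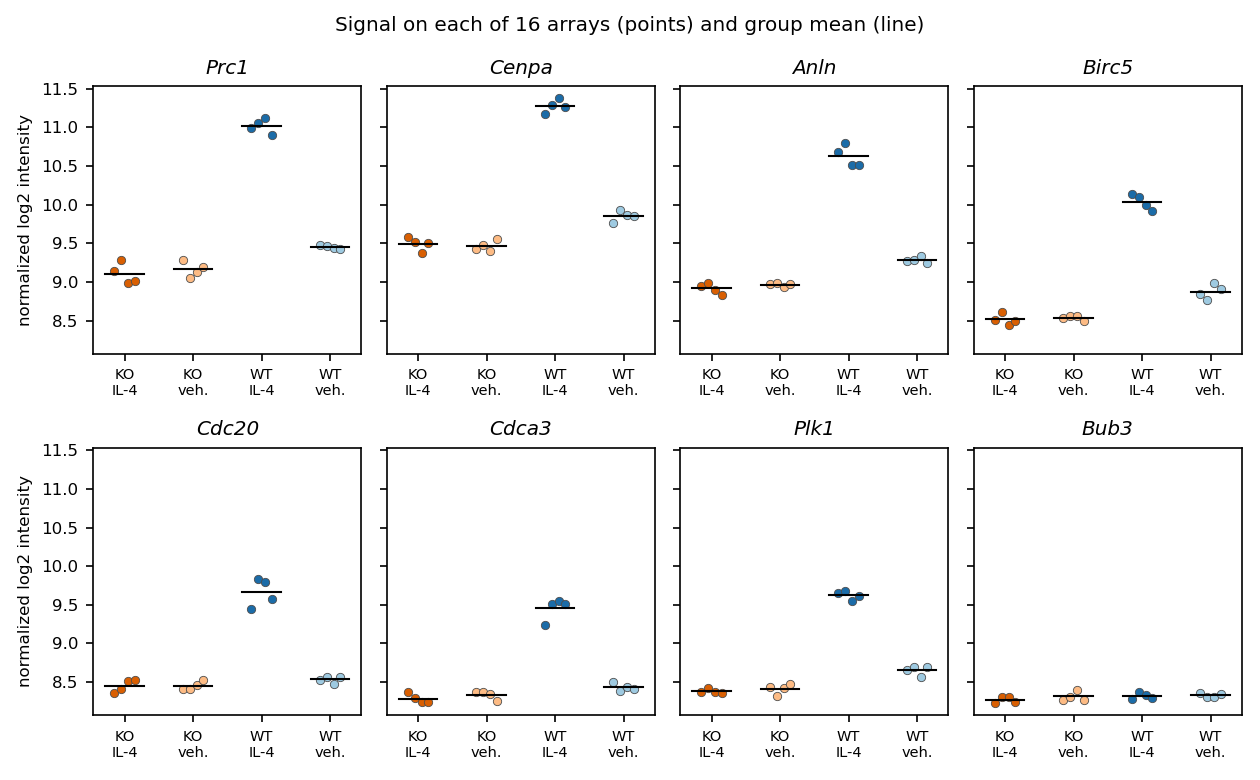
Normalized log2 intensity of 8 genes on each of the 16 arrays (points) with the group mean (line), for knockout (KO) and wild-type (WT) cells with IL-4 or vehicle (veh.). In the 7 genes with the largest rise the 4 wild-type IL-4 arrays stand above the other 12 arrays, and in Bub3 all groups overlap.

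Of the measured condensin and topoisomerase genes, 3 of 4 were higher in wild-type FAPs with IL-4. Top2a, the topoisomerase that untangles chromosomes, read 9.16, 9.41, 9.16 and 9.23 in wild-type IL-4 arrays, against 8.43, 8.46, 8.4 and 8.47 in wild-type vehicle arrays, a change of 0.80 (SE 0.05, limma adjusted p = 1.93e-08). Ncaph, a regulatory subunit of condensin I, read 8.44, 8.64, 8.56 and 8.51 in wild-type IL-4 arrays and 8.06, 8.08, 8.01 and 8.08 in wild-type vehicle arrays, a change of 0.48 (SE 0.03, limma adjusted p = 9.8e-08). Ncapd2, another regulatory subunit, read 8.12, 8.15, 8.22 and 8.21 in wild-type IL-4 arrays, against 7.97, 7.90, 7.97 and 7.99 in wild-type vehicle arrays, a change of 0.22 (SE 0.03, limma adjusted p = 0.000141). The arrays of each pair of groups were separate, though 2 dimmer Ncapd2 probes did not pass and the mean of its 3 probes changed by 0.08. Smc2 (0.02), a core subunit shared by both condensins, did not pass and was dim.

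Of the 15 genes that did not pass in wild type, 14 had a mean over all arrays within 0.15 of the array minimum, as had 1 gene that passed, Cdc25b. The margin uses the mean over all arrays, IL-4 arrays included; of the 29 genes above it, Tpx2 was within it on the wild-type vehicle mean. When the linear values were shifted so that the lowest on each array was 50, the same 29 genes passed and the median change of the 44 genes was 0.57, so the size of a dim gene's change depends on that unknown background. Of all 11038 probes over the margin, 13.9% were higher with IL-4 in wild type. For Kif11, for instance, the change was 0.21 on the deposited scale and 0.58 on the shifted one.

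**Figure D3:**
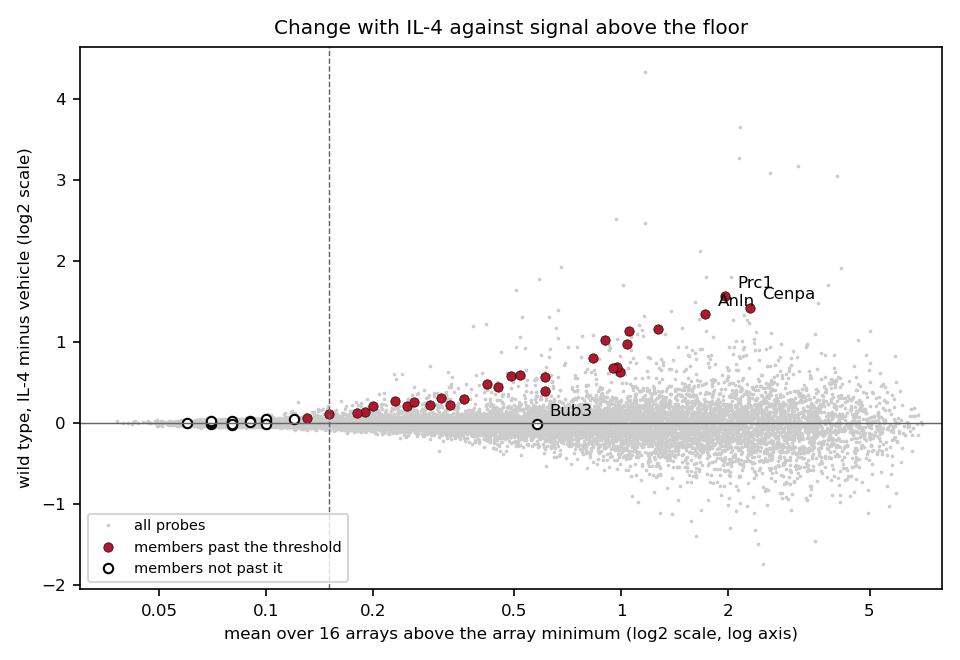
Change with IL-4 in wild type (vertical axis, log2 scale) against the mean signal over 16 arrays above the array minimum (horizontal axis, log2 units on a log axis), for all probes (grey) and the 44 genes (red, past the threshold; open, not past it). The dashed line marks 0.15, and Bub3 is the open circle to its right.

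In knockout FAPs 0 of the 44 genes passed with IL-4 against vehicle (limma), as did 0.0% of all probes. The 44 changes ran from -0.06 to 0.05 with a median of -0.00, and 1 gene, Spc25 at 0.04, had an unadjusted p under 0.05. Among all probes 1439 had such a p. Prc1 read 9.14, 9.28, 8.98 and 9.01 in knockout IL-4 arrays, against 9.28, 9.05, 9.13 and 9.19 in knockout vehicle arrays, with a change of -0.06 (95% interval -0.19 to 0.08). Cenpa read 9.58, 9.52, 9.38 and 9.50 in knockout IL-4 arrays and 9.43, 9.48, 9.40 and 9.56 in knockout vehicle arrays, with a change of 0.03 (95% interval -0.08 to 0.14). Both pairs of groups overlapped. Anln read 8.95, 8.99, 8.89 and 8.83 in knockout IL-4 arrays, against 8.97, 8.99, 8.93 and 8.97 in knockout vehicle arrays. Birc5 read 8.51, 8.61, 8.44 and 8.50 in knockout IL-4 arrays, against 8.53, 8.56, 8.56 and 8.49 in knockout vehicle arrays. Plk1 read 8.37, 8.42, 8.37 and 8.36 in knockout IL-4 arrays, against 8.43, 8.32, 8.42 and 8.48 in knockout vehicle arrays. These overlapped as well, with changes of -0.05, -0.02 and -0.03. Across the 44 genes the arrays did not overlap in 2, Nuf2 and Kif23, both higher with IL-4 in knockout cells, as were 1.42% of all probes, while 0 genes and 1.39% of all probes lay wholly below. For Kif23 the change was 0.02, with a 95% interval of -0.01 to 0.05, and for Nuf2 it was 0.03, with a 95% interval of -0.01 to 0.07. Cdc20 read 8.36, 8.41, 8.51 and 8.52 in knockout IL-4 arrays, against 8.41, 8.41, 8.46 and 8.53 in knockout vehicle arrays, a change of -0.00 (95% interval -0.15 to 0.15). Cdca3 read 8.37, 8.29, 8.24 and 8.24 in knockout IL-4 arrays, against 8.37, 8.37, 8.34 and 8.25 in knockout vehicle arrays, a change of -0.04 (95% interval -0.17 to 0.08). The upper bound of each interval given here for knockout FAPs lay below the wild-type change of the same gene, except for Nuf2.

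The difference between the responses, knockout minus wild type, was tested in the same fit. It was negative past the threshold in 26 of the 44 genes and positive in 0 (limma adjusted p under 0.05), against 4.04% and 4.35% of all probes. Its median over the 44 genes was -0.24, and -0.64 when the lowest value of each array was shifted to 50. Prc1 differed by -1.63 (SE 0.09, limma adjusted p = 2.1e-08), Cenpa by -1.39 (SE 0.07, limma adjusted p = 1.09e-08) and Anln by -1.39 (SE 0.08, limma adjusted p = 2.1e-08). Birc5 differed by -1.18, Cdc20 by -1.14 and Cdca3 by -1.06. The difference did not pass for Cdc25c at -0.11 (limma adjusted p = 0.0597), Espl1 at -0.09 (0.0606) or Cdc25b at -0.07 (0.0733), which had passed in wild type with small changes. Among the 26 genes, Ncapd2 (-0.21) did not pass as the mean of its 3 probes (-0.07), and the differences of Anln, Cdk1 and Nusap1 were then -0.48, -0.23 and -0.19. The median of the 44 genes on single arrays, each gene taken against the wild-type vehicle mean, was -0.04 to -0.03 in knockout IL-4 arrays, -0.04 to -0.02 in knockout vehicle arrays, 0.20 to 0.24 in wild-type IL-4 arrays and 0.00 to 0.01 in wild-type vehicle arrays. The wild-type IL-4 arrays stood apart from all 12 others on this measure.

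**Figure D4:**
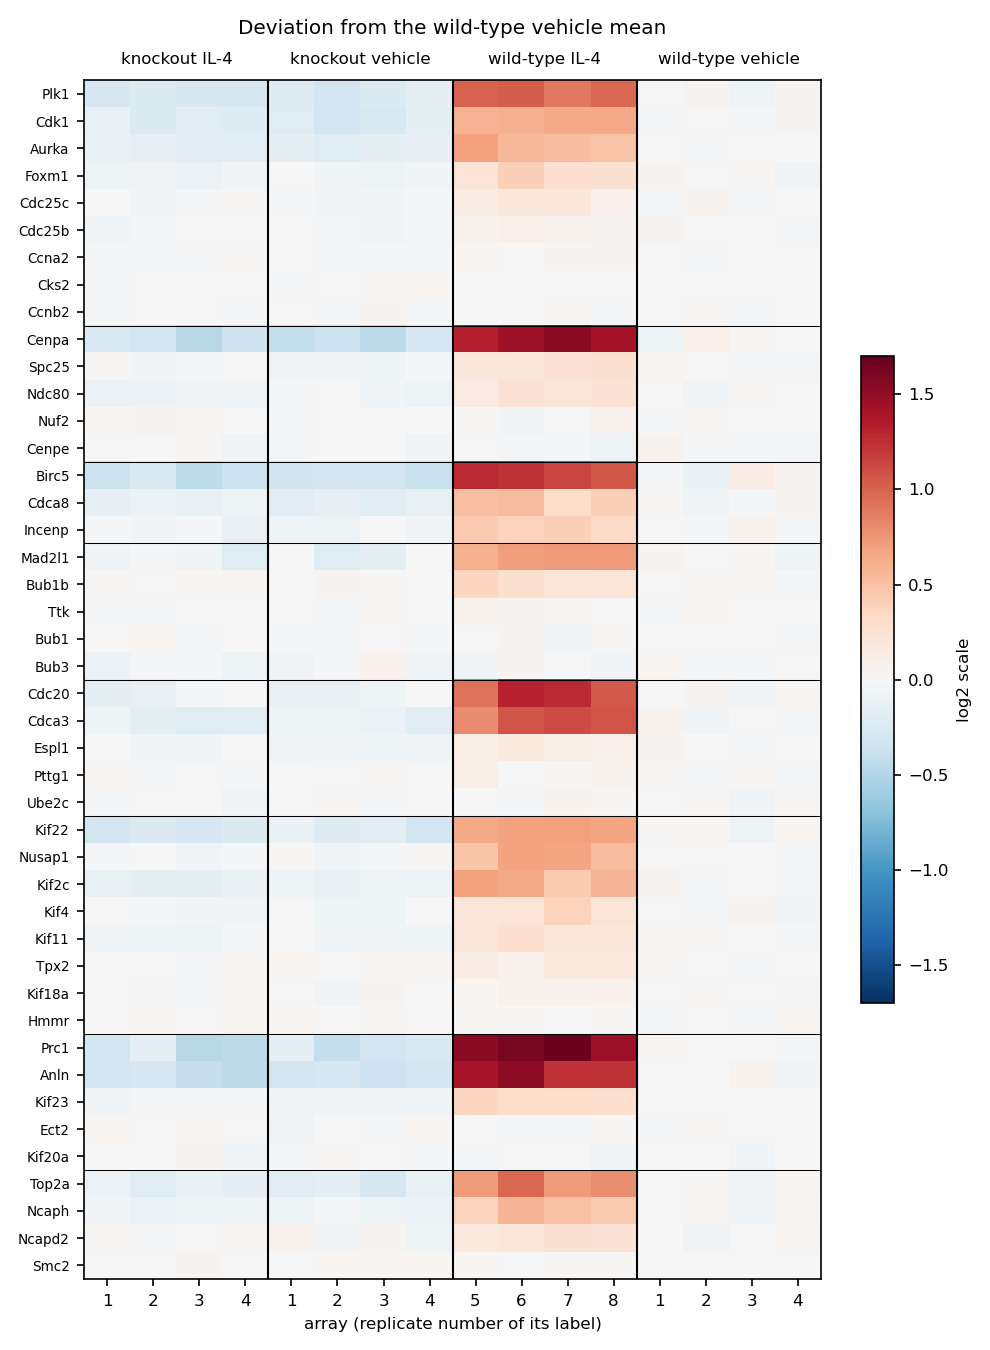
Deviation of each gene on each array from its mean in wild-type vehicle arrays (colour, log2 scale), with genes in rows by role and the 16 arrays in columns by group. The 4 wild-type IL-4 columns hold the high values, and the knockout columns are pale or slightly low for Plk1, Cdk1, Cenpa, Birc5, Prc1 and Anln.

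Between genotypes under vehicle, 10 of the 44 genes were lower in knockout FAPs than in wild-type FAPs and 0 were higher (limma adjusted p under 0.05), while 1.5% of all probes were lower and 1.18% were higher. The median difference of the 44 genes was -0.04, and -0.11 on the shifted scale. Cenpa read 9.43, 9.48, 9.40 and 9.56 in knockout vehicle arrays, against 9.76, 9.93, 9.87 and 9.86 in wild-type vehicle arrays, a difference of -0.39 (SE 0.05, limma adjusted p = 0.000878). Birc5 read 8.53, 8.56, 8.56 and 8.49 in knockout vehicle arrays and 8.84, 8.76, 8.99 and 8.91 in wild-type vehicle arrays, a difference of -0.34 (SE 0.05, limma adjusted p = 0.00286). Anln read 8.97, 8.99, 8.93 and 8.97 in knockout vehicle arrays, against 9.27, 9.28, 9.34 and 9.24 in wild-type vehicle arrays, a difference of -0.31 (SE 0.05, limma adjusted p = 0.0061). In all 3 genes every knockout array lay below every wild-type array. Prc1 read 9.28, 9.05, 9.13 and 9.19 in knockout vehicle arrays, against 9.48, 9.46, 9.44 and 9.42 in wild-type vehicle arrays, a difference of -0.29 (SE 0.06, limma adjusted p = 0.0255). Plk1 read 8.43, 8.32, 8.42 and 8.48 in knockout vehicle arrays, against 8.65, 8.69, 8.56 and 8.70 in wild-type vehicle arrays, a difference of -0.24 (SE 0.04, limma adjusted p = 0.00246). Cdk1 read 8.47, 8.34, 8.4 and 8.51 in knockout vehicle arrays, against 8.64, 8.68, 8.65 and 8.71 in wild-type vehicle arrays, a difference of -0.24 (SE 0.03, limma adjusted p = 0.00122). The arrays of these 3 genes did not overlap either. For Cdk1 and Anln this was 1 probe of 3: the other Cdk1 probes, both dim, differed by 0.02 and 0.05, and the mean of all 3 probes differed by -0.06 for Cdk1 and -0.11 for Anln. For Birc5, 2 of its 3 probes passed, and the remaining probe differed by -0.16 (limma adjusted p = 0.371). The other 4 genes were Kif22, Top2a, Aurka and Cdca8. Kif22 read 8.52, 8.41, 8.44 and 8.30 in knockout vehicle arrays, against 8.65, 8.66, 8.54 and 8.66 in wild-type vehicle arrays, a difference of -0.21 (limma adjusted p = 0.0109). Top2a read 8.25, 8.27, 8.15 and 8.31 in knockout vehicle arrays, against 8.43, 8.46, 8.4 and 8.47 in wild-type vehicle arrays, a difference of -0.19 (limma adjusted p = 0.0466). Aurka (-0.16, limma adjusted p = 0.0253) and Cdca8 (-0.16, limma adjusted p = 0.05 after rounding) differed least. In 15 of the 44 genes the groups did not overlap, all with the knockout below, against 4.41% of all probes; in 0 genes the knockout lay above, against 3.66% of all probes. Besides the 10 called genes these were Spc25, Espl1, Cdca3, Kif2c and Kif23. Genes with a large rise in wild type did not all pass here: Cdc20 differed by -0.08 (limma adjusted p = 0.719) and Nusap1 by -0.01 (limma adjusted p = 0.97). The other Cdc20 probes differed by -0.21, -0.11 and -0.03, and none passed (limma adjusted p = 0.112, 0.574 and 0.645). Of the 7 macrophage and leukocyte markers, Cd14 (0.24) and Cd74 (0.08) were higher in knockout than in wild-type vehicle arrays, and the part of such cells in the 10 differences was not tested.

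This count was less stable than the others. Without knockout vehicle array 2 or 3, or without any 1 of the 4 wild-type vehicle arrays, 6 genes passed, and Aurka, Cdca8, Prc1 and Top2a did not. Without knockout vehicle array 1, 7 passed. Without knockout vehicle arrays 2 and 3 together, which stood apart, Birc5, Cdk1, Cenpa and Plk1 passed, 4 genes in all. Prc1 differed by -0.25 without knockout vehicle array 2, by -0.28 to -0.30 without 1 wild-type vehicle array, and by -0.22 without knockout vehicle arrays 2 and 3.

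**Figure D5:**
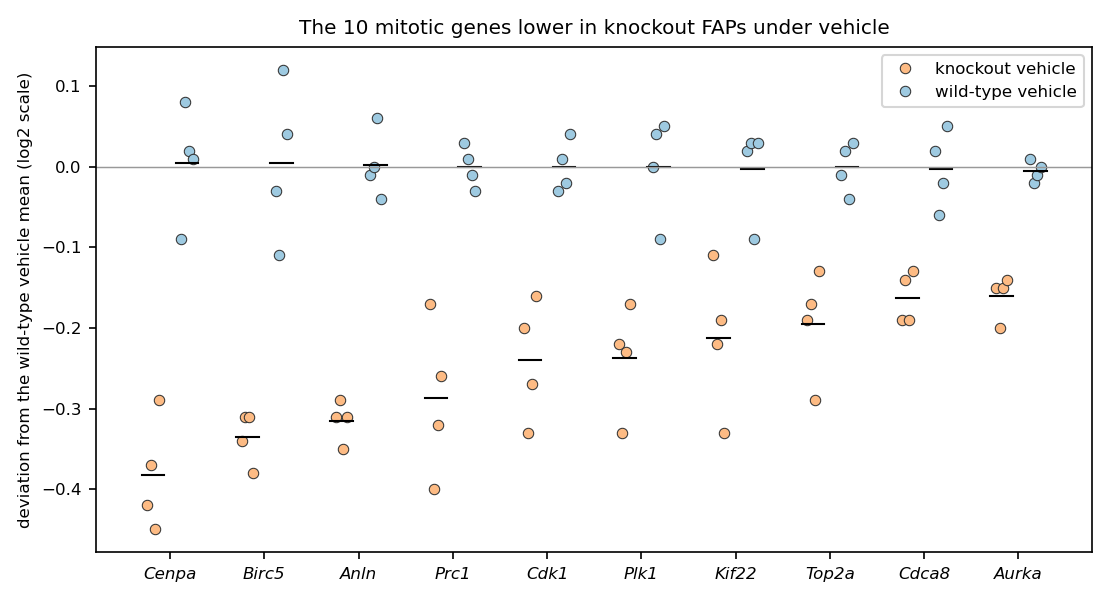
Deviation from the wild-type vehicle mean (log2 scale) on each knockout vehicle and wild-type vehicle array (points) with the group mean (line), for the 10 genes lower in knockout FAPs under vehicle. All 4 knockout arrays lie below all 4 wild-type arrays in each gene.

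With IL-4, 31 of the 44 genes were lower in knockout FAPs than in wild-type FAPs and 0 were higher (limma adjusted p under 0.05), against 7.2% and 7.7% of all probes. This comparison uses the same wild-type IL-4 arrays as the response above and is no independent support for it. The median difference was -0.26, and -0.69 on the shifted scale. Prc1 averaged 9.10 ± 0.14 in knockout IL-4 arrays and 11.02 ± 0.09 in wild-type IL-4 arrays (SD, n = 4 each), at 0.265 of the wild-type signal. Cenpa averaged 9.49 ± 0.08 in knockout IL-4 arrays and 11.27 ± 0.09 in wild-type IL-4 arrays (SD, n = 4 each), at 0.291 of the wild-type signal. Anln averaged 8.92 ± 0.07 in knockout IL-4 arrays and 10.62 ± 0.14 in wild-type IL-4 arrays (SD, n = 4 each), at 0.306 of the wild-type signal; the mean of its 3 probes differed by -0.59, against -1.71 for this probe. These were the 3 genes with the largest differences, and their groups lay over 1 log2 unit apart. Birc5 averaged 8.51 ± 0.07 in knockout IL-4 arrays and 10.04 ± 0.10 in wild-type IL-4 arrays (SD, n = 4 each), a difference of -1.53. Plk1 averaged 8.38 ± 0.03 in knockout IL-4 arrays and 9.63 ± 0.06 in wild-type IL-4 arrays (SD, n = 4 each), a difference of -1.25. Cdc20 averaged 8.45 ± 0.08 in knockout IL-4 arrays and 9.67 ± 0.19 in wild-type IL-4 arrays (SD, n = 4 each), a difference of -1.21. In these 3 genes too the lowest wild-type array lay above the highest knockout array. The 2 genes lower here that had not passed in the wild-type response were the dim Ccna2 (-0.04, limma adjusted p = 0.0427) and Kif18a (-0.07, limma adjusted p = 0.0319). Neither call was stable: without knockout IL-4 array 1, 2 or 3, or without wild-type IL-4 array 7 or 8, both were lost. Ccna2 was also lost on the shifted scale, and Kif18a with the mean of its probes. In 29 of the 44 genes the knockout arrays lay wholly below the wild-type arrays, against 8.3% of all probes, and in 0 wholly above, against 8.86% of all probes.

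Across the 4 groups, 31 of the 44 genes had their highest mean in wild-type IL-4 arrays and their next in wild-type vehicle arrays. In 18 of these the knockout vehicle mean came next and in 13 the knockout IL-4 mean did. Dim genes count here too: Ttk averaged 7.83, 7.80, 7.80 and 7.78 in wild-type IL-4, wild-type vehicle, knockout vehicle and knockout IL-4 arrays. The share of all probes with this order was not computed. Between the knockout groups 0 of the 44 genes passed (limma), and their arrays overlapped in all but Nuf2 and Kif23.

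Other genes of mitosis were taken from 5 lists, also chosen with earlier results of these data known. In wild-type FAPs with IL-4, 40 of their 86 measured genes (46.5%) were higher and 1 (1.16%) was lower, against 6.34% and 7.32% of all probes, with a median change of 0.07. Of the other kinetochore and centromere genes, 16 of 24 were higher and 0 lower: Hjurp, the chaperone that loads Cenpa, rose by 0.66, Mis18a, which licenses that loading, by 0.64, and Cenpi, an inner kinetochore protein, by 0.37. Hjurp read 9.19, 9.49, 9.97 and 9.72 in wild-type IL-4 arrays, against 8.98, 8.98, 8.90 and 8.84 in wild-type vehicle arrays, so the IL-4 arrays spread widely without reaching the vehicle arrays. Of the other spindle, centrosome and midbody genes, 12 of 25 were higher and 0 lower, with Pbk, a mitotic kinase, at 0.97, Gtse1, a microtubule-binding protein, at 0.91 and Cdca2, a phosphatase anchor on chromosomes, at 0.56. Among other entry regulators and the DREAM and MYB-MuvB complex, 3 of 12 were higher and 0 lower: Mybl2, the B-MYB partner of MuvB, at 0.48, Lin54, the MuvB subunit that binds DNA, at 0.43, and Rbl1, a pocket protein of DREAM, at 0.15.

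Of the 14 measured genes of the anaphase-promoting complex, 4 were higher in wild-type FAPs with IL-4, Anapc5 (0.54), Anapc4 (0.39) and Cdc16 (0.20) among them, and 1 subunit was lower, Anapc13 (-0.37), which as 7.14% of the list is near the share of all probes that were lower. Anapc13 read 10.63, 10.63, 10.61 and 10.83 in wild-type IL-4 arrays, against 11.13, 11.06, 10.88 and 11.10 in wild-type vehicle arrays. Of the genes of cohesin, condensin II and chromosome structure, 5 of 11 were higher and 0 lower, with the condensin II subunits Ncaph2 at 0.28 and Ncapd3 at 0.17 and the cohesin protector Cdca5 (sororin) at 0.17. In knockout FAPs 0 of the 86 genes passed with IL-4 (limma), as did 0 of all 25697 probes. Under vehicle, Pbk (-0.22), Gtse1 (-0.22), Cdca2 (-0.12) and Kif18b (-0.09), a spindle kinesin, were lower in knockout than in wild-type FAPs, and Arpp19 (0.20), an inhibitor of the phosphatase that opposes Cdk1, was higher. These were 4.65% and 1.16% of the 86 genes, against 1.5% of all probes lower and 1.18% higher. The remaining 81 did not pass.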

How the data were processed

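Total RNA from plated FAPs, isolated with RNeasy and carrying Cy3, was hybridised to 16 Illumina bead arrays, per the labels' protocols. The deposited log2 values were normalized by the authors. Software, background correction and log base are not given in the sources used here; the range fits log2, from 7.72 to 14.77, and sorted arrays differed by at most 0.00059, as quantile normalization gives. Probes were named through the platform annotation (23978 with 1 symbol, 0 with several, 1719 unnamed here). R 4.3.3 and limma 3.58.1 fitted a mean per group to the 16 arrays, leaving 12 residual degrees of freedom, and empirical Bayes moderated the variances. P-values are two-sided, Benjamini-Hochberg adjusted over 25697 probes per contrast, with a threshold of 0.05. The contrasts share arrays and are not independent. The fit was checked on simulated data. The number of arrays limits the precision.

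Genes and lists were chosen with earlier results of these data known. Array values are given for up to 3 genes per role with the largest wild-type change and for the smallest change. They are also given for up to 6 in each genotype comparison, with Kif22 and Top2a added under vehicle. Up to 3 rising and 3 falling genes of each other list are named. Nuf2, Spc25, Kif23, Hjurp, Anapc13, Kif11, Bub3, Cd14, Cd74, Lyz2 and the named FAP markers were also described after their values were seen. Alternatives were repeated quantile normalization, median centring, a floor of 50, brighter probes only, a trended robust variance, array weights, the compared groups alone, a block on replicate number, the mean of a gene's probes and each array left out. Promoters came from RefSeq (GRCm38.p6). Tables and figures used Python 3.11.15, pandas 2.3.3 and matplotlib 3.10.9.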

Additional observations from a re-analysis of the deposited data

Results flagged for a closer look

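The response to IL-4 differed between knockout and wild-type FAPs in 26 genes, by the test of the difference itself (limma adjusted p under 0.05, log2 scale, knockout minus wild type). All 26 were negative, with 0 called responses in the knockout. Among all probes 4.04% were negative and 4.35% positive. The widest were Prc1 by -1.63, Cenpa by -1.39, Anln by -1.39, Birc5 by -1.18, Cdc20 by -1.14, Cdca3 by -1.06 and Plk1 by -1.01. Then came Top2a by -0.75, Kif22 by -0.73, Mad2l1 by -0.69, Kif2c by -0.63, Nusap1 by -0.61, Cdk1 by -0.58, Aurka by -0.56, Ncaph by -0.48 and Cdca8 by -0.40. The remaining 10 differed less, Incenp by -0.39, Foxm1 by -0.32, Kif23 by -0.29, Bub1b by -0.26, Kif4 by -0.26, Ndc80 by -0.24, Kif11 by -0.24, Ncapd2 by -0.21, Spc25 by -0.18 and Tpx2 by -0.14.

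Single arrays stood far from the other 3 of their group in 13 of 176 gene and group pairs, and chance alone gives about 1 in 20. Among genes over the brightness margin, Cdca3 read 9.24 on wild-type IL-4 array 5, against 9.51 to 9.55 on the others, and Mad2l1 read 9.17 on the same array, against 9.27 to 9.28. Kif4 read 8.30 on wild-type IL-4 array 7, against 8.12 to 8.14. Kif22 read 8.54 on wild-type vehicle array 3, against 8.65 to 8.66, and Plk1 read 8.42 on knockout IL-4 array 2, against 8.36 to 8.37.

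The other 8 lay near the array minimum. Ccna2 read 7.83 on knockout IL-4 array 4, against 7.79 on the others, and 7.82 on wild-type IL-4 array 6, against 7.84 to 7.85. Ube2c read 7.78 on knockout IL-4 array 4, against 7.81 to 7.82, and 7.77 on wild-type vehicle array 3, against 7.84 to 7.85. Pttg1 read 7.86 on knockout IL-4 array 1, against 7.81 to 7.82, and 7.85 on knockout vehicle array 3, against 7.82 to 7.83. Kif18a read 7.84 on wild-type IL-4 array 5, against 7.87 to 7.88, and Hmmr read 7.79 on wild-type IL-4 array 7, against 7.82.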

How the results depend on the processing

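No called gene changed direction under any alternative. The wild-type count of higher genes was 28 (of 29 tested) to 30. The count of lower differences of response was 26 to 28 (Ncapd2 lost with the mean of its probes). The count lower in the knockout with IL-4 was 28 (of 29 tested) to 31. Its 28 came with brighter probes only, where Ccna2, Cdc25b and Kif18a were not tested. Ccna2 and Kif18a were lost in several other settings. With a trended robust variance 1 probe of all passed in the knockout, and 0 of the 44 genes. The genotype count under vehicle moved most: with single arrays left out, 6 to 11 genes were lower, and over all probes 187 to 344 were higher and 239 to 479 lower. Without knockout vehicle arrays 2 and 3, an alternative chosen after seeing the data, 4 genes were lower, and 181 probes were higher and 204 lower. With the replicate number as a block and only the groups compared, 7 genes were lower (Cdca8, Kif22 and Plk1 did not pass), and 167 probes were higher and 187 lower; in the knockout response 0 genes passed. Same-numbered arrays correlated at -0.24 to 0.16 in their deviations from the group means, and arrays of different number reached up to 0.33. So few weak correlations cannot decide whether a shared number marks a shared mouse or culture. Numbers 5 to 8 of wild-type IL-4 pair with none. The causes of these shifts were not tested; with fewer arrays the fit has fewer degrees of freedom. Signal over background limits what could be seen for 15 genes within 0.15 of the array minimum.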
